A study of Mus musculus with 4 samples.

Results

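Mitochondrial ribosomal protein genes are the protein-coding genes of mm10 whose symbols are Mrpl or Mrps followed by a digit. By this rule 78 of the 21951 protein-coding genes of the annotation were members, 49 with Mrpl symbols for the large subunit and 29 with Mrps symbols for the small subunit. They lie on 17 chromosomes, and chromosome 11 holds the most, 11 members.

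RNAseq was made from primary tumors of Foxp3+EGFP Balb/c mice, in which EGFP marks cells with an active *Foxp3* promoter. The mice carried 4T1 cells, a mammary carcinoma line of Balb/c origin, in the mammary gland. They received a Control SMO or an LFPRLR SMO for 12 days. An SMO is a splice modulating oligomer, and the LFPRLR SMO lowers the long form of the prolactin receptor throughout the animal, in tumor and host cells alike. Every mouse carried the same EGFP marker and the same tumor line, and no tumor without an oligomer was included. The labels read as if the injected cells had been treated, whereas the methods of the study treat the mice. Each of the 4 libraries was a pool of RNA from 6 mice, either of whole tumor or of tumor Tregs, regulatory T cells sorted by EGFP. A group was therefore a single sample. No SD and no p-value can be given, and a ratio describes the pair of libraries it was taken from.

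Whole tumor values are deposited FPKM, a measure of reads scaled by transcript length and library size, of transcripts assembled with Cufflinks. Read counts are not given in the sources used here. An FPKM of 1 stood for a mean read depth of 1.88 (Control SMO) and 1.75 (LFPRLR SMO). Transcripts shorter than 300 bases made up 99.4% of all FPKM in the Control SMO library and 87.2% in the LFPRLR SMO library. They were left out of the FPKM of a gene, but not of the exon-weighted value explained below. Longer transcripts summed to 544097 FPKM (Control SMO) and 490665 FPKM (LFPRLR SMO). The tumor Treg values were identical under both labels, with 4838 of 4838 transcripts equal, so they are used as 1 set with no ratio. Of the markers, 0 of 11 T cell genes and 0 of 7 Treg genes were listed in that set, *Foxp3* among the genes not listed, while 15 of 15 macrophage and monocyte genes were. The label of sorted Tregs is therefore not borne out by its defining markers. In whole tumor 0 of 11 T cell genes were listed in either library, and of the 12 epithelial genes of 4T1 cells 11 were listed in each.

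The mitochondrial ribosome translates the few messenger RNAs of mitochondrial DNA, which encode subunits of the respiratory chain and of ATP synthase. Its RNAs are made in mitochondria, but all of its proteins are encoded in the nucleus, made in the cytosol and imported. The large subunit joins amino acids at the peptidyl transferase centre and passes the nascent chain out through the exit tunnel towards the inner membrane. The small subunit binds the messenger RNA and reads its codons. Many of the proteins have bacterial homologues, and many others are found only in mitochondria.

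The promoters of the members are shown because members differ in the short motifs known from genes of mitochondrial function. RefSeq windows on GRCm38.p6, from 250 bases before to 50 bases after a start site, matched 69 of the 78 members, with 75 windows. The sites searched on both strands were GCATGCGC for NRF1, CCGGAAG for the ETS family that includes GABPA, and AAGATGGC for YY1. The genes shown are the 5 with 1 transcript in each whole tumor library whose FPKM lay inside its deposited 95% bounds and whose bounds did not overlap between the libraries. Capitals mark a match, which on the other strand reads GCGCATGC, CTTCCGG or GCCATCTT. The windows were chr17:12916042-12916341 on the minus strand for *Mrpl18*, chr13:14612988-14613287 on the minus strand for *Mrpl32*, chr8:71464676-71464975 on the plus strand for *Mrpl34*, chr2:24975049-24975348 on the minus strand for *Mrpl41* and chr16:92058086-92058385 on the plus strand for *Mrps6*. Each is written in the direction of transcription.
Mrpl18: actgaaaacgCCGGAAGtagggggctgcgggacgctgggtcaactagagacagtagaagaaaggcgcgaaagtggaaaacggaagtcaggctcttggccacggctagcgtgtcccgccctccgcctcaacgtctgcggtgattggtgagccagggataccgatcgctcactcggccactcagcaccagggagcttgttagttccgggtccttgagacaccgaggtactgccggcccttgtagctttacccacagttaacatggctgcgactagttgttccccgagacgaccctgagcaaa
Mrpl32: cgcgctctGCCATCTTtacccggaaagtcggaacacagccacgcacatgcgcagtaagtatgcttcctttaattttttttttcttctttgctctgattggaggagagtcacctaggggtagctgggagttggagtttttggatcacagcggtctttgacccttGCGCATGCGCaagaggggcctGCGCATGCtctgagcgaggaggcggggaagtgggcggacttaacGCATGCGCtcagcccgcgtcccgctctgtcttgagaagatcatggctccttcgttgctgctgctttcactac
Mrpl34: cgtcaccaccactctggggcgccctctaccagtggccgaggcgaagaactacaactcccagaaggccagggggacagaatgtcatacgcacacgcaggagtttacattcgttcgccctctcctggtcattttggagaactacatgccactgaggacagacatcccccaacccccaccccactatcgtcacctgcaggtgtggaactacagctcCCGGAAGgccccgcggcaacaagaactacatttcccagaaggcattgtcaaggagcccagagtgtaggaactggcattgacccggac
Mrpl41: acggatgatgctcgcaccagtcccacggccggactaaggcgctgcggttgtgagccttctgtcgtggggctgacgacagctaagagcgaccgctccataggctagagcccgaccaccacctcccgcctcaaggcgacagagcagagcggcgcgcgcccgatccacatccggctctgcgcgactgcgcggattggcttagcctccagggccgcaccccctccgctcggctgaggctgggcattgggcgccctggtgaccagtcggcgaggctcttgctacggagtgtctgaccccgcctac
Mrps6: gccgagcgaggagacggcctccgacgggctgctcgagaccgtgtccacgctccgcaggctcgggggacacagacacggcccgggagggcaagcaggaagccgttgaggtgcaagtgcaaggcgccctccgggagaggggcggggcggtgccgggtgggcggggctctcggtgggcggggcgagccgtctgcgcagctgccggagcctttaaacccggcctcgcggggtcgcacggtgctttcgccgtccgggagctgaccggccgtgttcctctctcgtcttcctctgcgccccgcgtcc
*Mrpl32* held 4 starts of the NRF1 motif, of which a pair overlap as a palindrome, and 1 of the YY1 motif. *Mrpl18* and *Mrpl34* held 1 ETS motif each. No match to these letters was in the windows of *Mrpl41* and *Mrps6*.

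Over all member windows, the ETS motif was in 34.7%, against 11.6% of the 21263 windows of all genes. The YY1 motif was in 16.0% against 3.05%, and the NRF1 motif in 10.7% against 3.52%. The CCAAT box, as CCAAT, was in 40.0% against 38.2%, and the GC box, as GGGCGG, in 52.0% against 46.2%. TATAAA was in 6.67% against 12.6%. These are shares of windows with a match and do not show that a factor was bound. Members with and without a motif had close FPKM ratios between the whole tumor libraries. The median log2 ratio of FPKM was -0.32 for 22 members with an ETS motif and -0.37 for 39 without. It was -0.32 for 8 with a YY1 motif and -0.35 for 53 without, and -0.28 for 8 with an NRF1 motif and -0.33 for 53 without. By an exon-weighted value, explained below, the medians lay further apart. They were -0.43 with and -0.56 without an ETS motif. For the YY1 motif they were -0.62 and -0.54, and for the NRF1 motif also -0.62 and -0.54. For YY1 and NRF1 the order was thus the reverse of that by FPKM.

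Of the 78 members, 23, or 29.5%, start within 1000 bases of a protein-coding gene on the opposite strand that runs the other way, with up to 200 bases of overlap allowed. This arrangement was found for 7.94% of all protein-coding genes. *Mrpl32* starts 75 bases from *Psma2*, a proteasome subunit gene whose FPKM was 32.0 with Control SMO and 10.5 with LFPRLR SMO. *Mrpl49* starts 59 bases from *Fau*, which encodes a protein of the cytosolic ribosome, and *Mrps18b* 45 bases from *Ppp1r10*. *Mrpl46* and *Mrps11* also run head to head and share 413 bases, more than the limit allows. Where such genes overlap, and strand is not stated for these libraries, reads of shared bases cannot be divided between them.

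Nearly all members were listed in whole tumor, more often than protein-coding genes as a whole. Listed here means that at least 1 transcript of at least 300 bases was assigned to the gene. With Control SMO 75 members were listed, 48 of the large and 27 of the small subunit, while 42.3% of all protein-coding genes were. With LFPRLR SMO 71 were listed, 45 and 26, against 42.2% of all protein-coding genes. Both libraries listed 70 members. *Mrpl55* and *Mrps11*, the latter a platform protein of the small subunit, were listed in neither.

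A further 6 members were listed in 1 whole tumor library, and no fold is given for them. With Control SMO these were *Mrpl36* at 2.46 FPKM, *Mrpl49* at 4.49, *Mrpl53* at 3.05, *Mrps12* at 5.28 and *Mrps16* at 3.45. With LFPRLR SMO it was *Mrps18c*, at 7.04. *Mrps12* encodes the protein at the decoding centre, and *Mrps18c* the S18 homologue of the platform. No transcript of any kind overlapped these genes in the library that did not list them. Transcripts of about the length of *Mrps12* were listed down to 0.800 FPKM with LFPRLR SMO, and those of about the length of *Mrps18c* down to 0.740 with Control SMO. A gene that was not listed is not shown to be unexpressed.

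Member levels lay close to the median listed gene with Control SMO and below it with LFPRLR SMO. The median FPKM of the large subunit was 4.96 with Control SMO, with a lowest value of 1.81 and a highest of 22.2, and 3.81 with LFPRLR SMO, from 1.77 to 17.4. For the small subunit the median was 5.28, from 2.05 to 23.8, and then 4.12, from 1.98 to 15.8. For comparison, the median over all listed protein-coding genes was 5.39 (Control SMO) and 5.52 (LFPRLR SMO). The median member stood at percentile 47.7 of these genes (Control SMO) and 34.6 (LFPRLR SMO). The depth behind a member was a median of 8.49 reads per base, from 3.38 to 45.1, with Control SMO, and 6.47, from 2.37 to 31.5, with LFPRLR SMO.

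A few members stood well above the others. *Mrps21*, a platform protein with a bacterial homologue, was highest with Control SMO at 23.8 FPKM and was at 15.8 with LFPRLR SMO. *Mrpl33* was at 22.2 and 17.4, *Mrpl13* at 20.9 and 8.70, and *Mrpl23*, at the rim of the exit tunnel, at 18.5 and 11.8. *Mrpl32*, whose product is trimmed by a mitochondrial protease before assembly, was at 12.9 and 6.63. All of these were lower with LFPRLR SMO, whereas *Mrpl42* was at 10.2 and 11.0 and *Mrpl52* at 9.10 and 9.74. At the low end were *Mrpl44* at 1.87 and 1.94, *Mrpl4* at 2.17 and 1.77, and *Mrpl46* at 1.81 and 2.42. Across the 70 members listed in both libraries, the SD of log2 FPKM among genes was 0.87 with Control SMO and 0.74 with LFPRLR SMO. Pearson's r of log2 FPKM between the libraries was 0.61 across these genes, and 0.86 for exon-weighted values. Genes are not replicates, and r is given as a description.

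**Figure D1:**
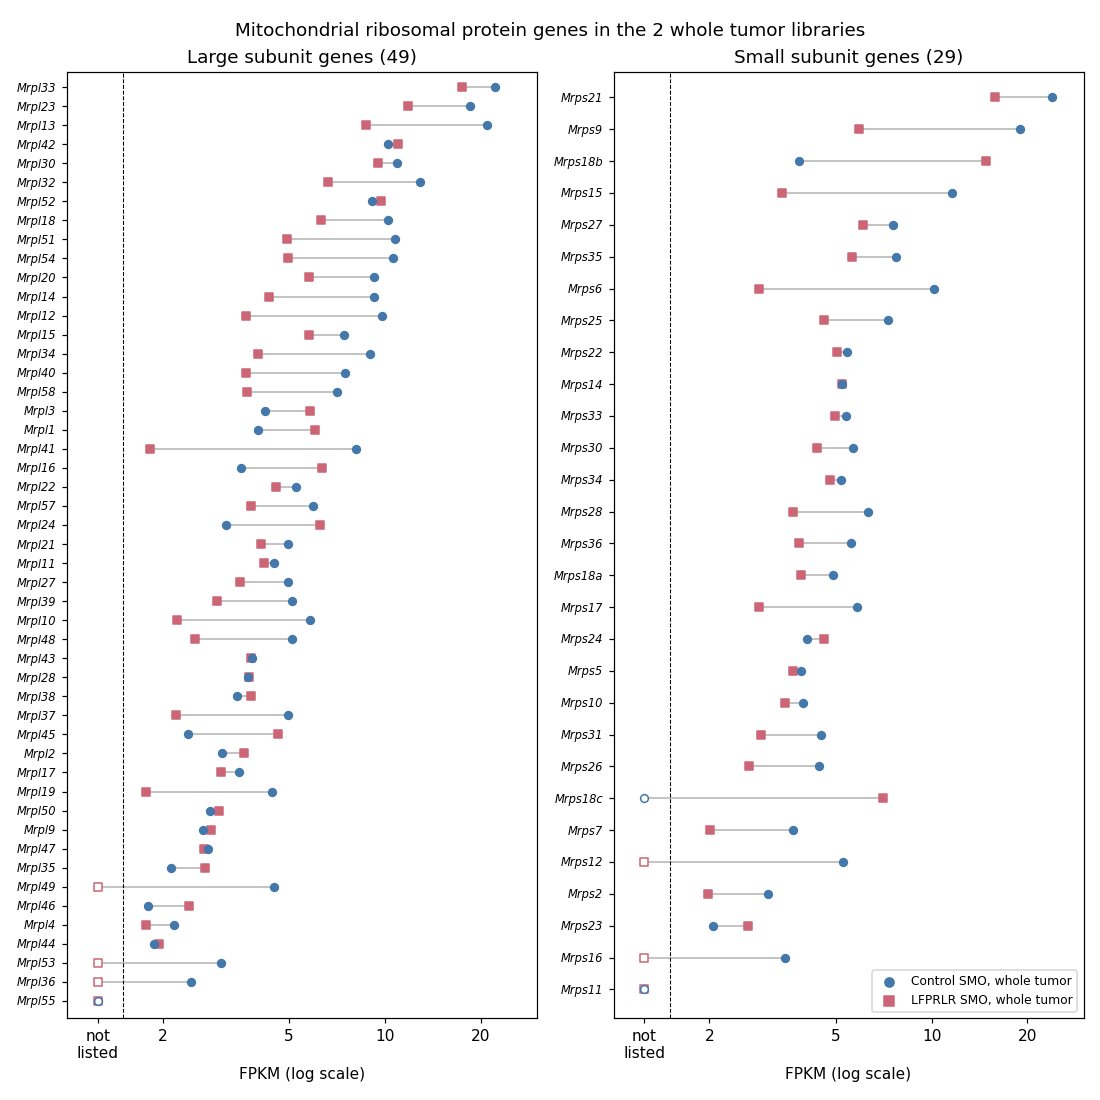
FPKM (log scale, horizontal axis) of each member gene with Control SMO (blue circles) and LFPRLR SMO (red squares) in whole tumor, with large subunit genes left and small subunit genes right, ordered by the sum of both values. Open symbols left of the dashed line are genes not listed in that library. Of the 70 genes listed in both, 51 lie lower with LFPRLR SMO, where 55.3% of all protein-coding genes listed in both do.

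The comparison of the whole tumor libraries asks how the LFPRLR SMO acts on the tumor as a whole. More members were lower than higher with LFPRLR SMO. Of the 70 members listed in both libraries, 51 had a lower FPKM with LFPRLR SMO and 19 a higher one. Among all protein-coding genes listed in both, 55.3% had a lower FPKM with LFPRLR SMO. Of the members, 21 of the 70 differed by less than 1.2-fold. Summed FPKM of the large subunit went from 316 (Control SMO) to 220 (LFPRLR SMO), a ratio of 0.696. For the small subunit the sums were 179 and 129, a ratio of 0.721. Over all protein-coding genes the ratio of FPKM sums was 0.879, and 0.857 without *Lars2*, which had the highest FPKM. In bulk tumor RNA, fewer cells of a type and less RNA per cell cannot be told apart.

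Ratios of FPKM were taken as log2((LFPRLR SMO + 0.1)/(Control SMO + 0.1)) for genes with at least 1 FPKM in a library, which understates the change of low genes. In the large subunit, a factor of 2 was passed upwards by 0 of 48 members and downwards by 14, and 11 of these 14 were listed in both libraries. Over the 9960 protein-coding genes with a ratio, 16.9% were higher and 16.5% lower by that factor. In the small subunit 2 of 28 members were higher and 5 lower, of which 1 and 3 were listed in both libraries. The median log2 ratio was -0.36 in the large subunit, with quartiles of -1.08 and 0.08, and -0.49 in the small subunit, with quartiles of -0.79 and -0.11. The median over all protein-coding genes was -0.09. Below that median gene were 31 of the 48 large subunit and 22 of the 28 small subunit members.

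The FPKM of a gene assembled in several pieces counts each piece in full. An exon-weighted value was therefore used beside it. The weight of a transcript is its bases within annotated exons of the gene, divided by the size of the longest annotated transcript. Exons of all annotated transcripts count, so a weight can exceed 1. *Mrpl20* with Control SMO, for example, was at 9.22 FPKM and 9.68 exon-weighted. By this measure 0 of 44 large subunit members were higher and 10 lower by a factor of 2, with 7 of the 10 listed in both libraries. In the small subunit 1 of 25 was higher and 3 were lower, with 0 and 2 listed in both. Of the 8204 protein-coding genes with such a ratio, 3.04% were higher and 7.76% lower. Median log2 ratios of exon-weighted values were -0.63 in the large and -0.54 in the small subunit, against -0.17 over all protein-coding genes. They were below 0 for 37 of 44 large subunit members, 20 of 25 small subunit members and 67.3% of all protein-coding genes. The ratios of exon-weighted sums were 0.631 for the large subunit, 0.706 for the small subunit and 0.609 over all protein-coding genes. Without *Lars2* the last of these was 0.593. By sums, both subunits thus lay below all protein-coding genes with FPKM and above them with the exon-weighted value. The highest gene alone made up 21581 of the exon-weighted sum of 115700 with Control SMO, and 11787 of 70502 with LFPRLR SMO. By medians, both subunits lay below all protein-coding genes with both measures.

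Scaling FPKM to the same sum over transcripts of at least 300 bases moves ratios up by at most 0.15 on the log2 scale. Because of the pseudocount, low genes move by less, and genes not listed with LFPRLR SMO do not move. After it the median log2 ratio of FPKM was -0.21 in the large and -0.35 in the small subunit, and that of all protein-coding genes was 0.06. Over all protein-coding genes this scaling gave 1990 higher and 1430 lower by a factor of 2, where unscaled FPKM gave 1681 and 1642 and the exon-weighted value 249 and 637. With scaled FPKM 30 of 48 large subunit members and 19 of 28 small subunit members were below 0, as were 47.1% of all protein-coding genes.

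**Figure D2:**
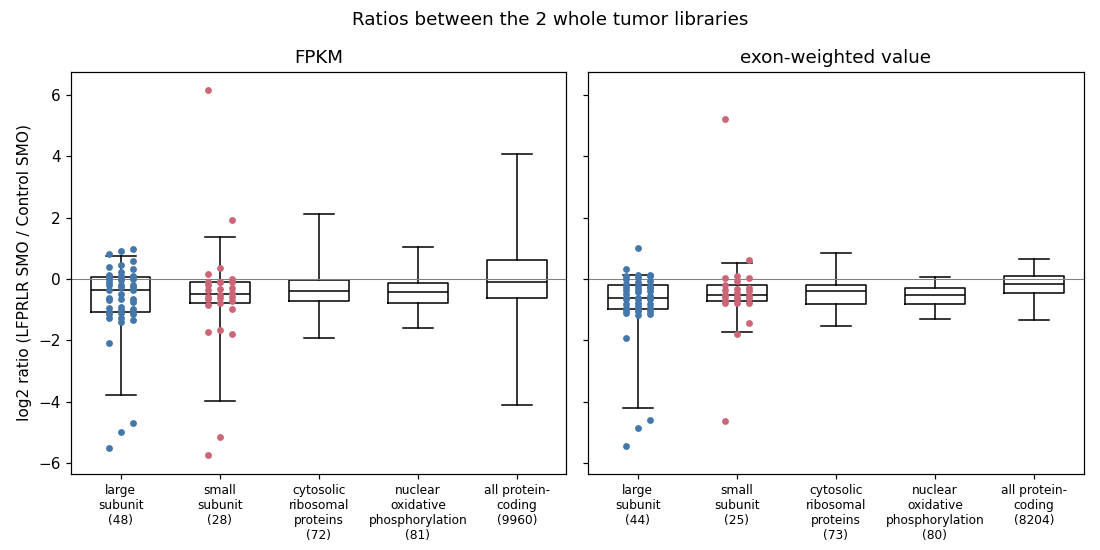
Log2 ratio of LFPRLR SMO to Control SMO in whole tumor (vertical axis) for both subunits, cytosolic ribosomal proteins, nuclear oxidative phosphorylation genes and all protein-coding genes, by FPKM (left) and exon-weighted value (right), with the number of genes below each name. Boxes give quartiles and median, whiskers the percentiles 5 and 95, and points are members. Points beyond -4 or above 5 are members listed in 1 library only, placed by the pseudocount. The medians of both subunits lie below the median of all protein-coding genes in both panels.

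By both measures, 7 members listed in both libraries were lower by a factor of 2 with LFPRLR SMO. These were *Mrpl13*, *Mrpl34*, *Mrpl40*, *Mrpl41* and *Mrpl54* of the large subunit and *Mrps6* and *Mrps15* of the small subunit. Taken singly, FPKM gave 14 of 70 members lower and the exon-weighted value 9 of 64. Among all protein-coding genes listed in both libraries these were 890 of 8465 and 399 of 7835. The share of all genes lower by both measures was not computed, so the count of 7 has no background. *Mrpl41*, a protein without a bacterial homologue, was at 8.13 FPKM (Control SMO) and 1.83 FPKM (LFPRLR SMO), a ratio of 0.225, and its exon-weighted values were 7.25 and 1.83. Its longest assembled transcript was 692 bases with Control SMO and 1469 bases with LFPRLR SMO. *Mrps6*, a homologue of bacterial S6 on the platform, was at 10.2 and 2.86 FPKM, a ratio of 0.281, and at 8.69 and 3.12 exon-weighted. *Mrps15*, a homologue of bacterial S15, was at 11.6 and 3.39 FPKM, a ratio of 0.292, and at 4.80 and 1.32 exon-weighted. These were the members with the lowest ratios among those listed in both libraries, by the exon-weighted value too.

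Among the other members lower by both measures, *Mrpl13*, a homologue of bacterial L13, had an FPKM ratio of 0.416. *Mrpl34*, a short protein of the large subunit core, was at 8.95 and 3.98 FPKM, a ratio of 0.445. Its exon-weighted values, from transcripts that cover nearly the whole gene in each library, were 8.95 and 3.90. *Mrpl54*, of the stalk region, was at 10.6 and 4.96 FPKM and at 10.2 and 4.92 exon-weighted. *Mrpl40*, of the central protuberance, was at 7.47 and 3.65 FPKM and at 5.79 and 2.81 exon-weighted. For these 4 genes the ratios of the measures were close, between 0.416 and 0.489 for FPKM and between 0.435 and 0.484 for the exon-weighted value.

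By FPKM alone, *Mrpl10*, *Mrpl12*, *Mrpl14*, *Mrpl19*, *Mrpl37*, *Mrpl51* and *Mrps9* were lower by a factor of 2, with exon-weighted ratios between 0.507 and 0.741. *Mrps9*, a protein of the small subunit head, was at 18.9 FPKM from 3 transcripts with Control SMO and 5.93 from 2 with LFPRLR SMO, and its exon-weighted values were 4.38 and 2.80. By the exon-weighted value alone, *Mrpl44* and *Mrpl58* were lower by that factor. *Mrpl44*, related to RNase III, was at 1.74 and 0.793 exon-weighted but at 1.87 and 1.94 FPKM, with a longest assembled transcript of 1323 bases and then 704. *Mrpl58*, the peptidyl-tRNA hydrolase that rescues stalled ribosomes, was at 2.21 and 0.971 exon-weighted and at 7.07 and 3.68 FPKM. For these members the measures therefore placed the ratio on different sides of a factor of 2.

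Few members were higher by a large factor with LFPRLR SMO. *Mrps18b*, a mitochondrial relative of bacterial S18, was at 3.84 FPKM (Control SMO) and 14.8 FPKM (LFPRLR SMO), a ratio of 3.86. Its exon-weighted values were 3.69 and 5.76, a ratio of 1.56, and its longest assembled transcript was 1230 bases with Control SMO and 427 with LFPRLR SMO, where it was assembled as 2 transcripts. *Mrpl24*, of the exit tunnel, was at 3.16 and 6.25 FPKM and at 1.96 and 4.01 exon-weighted, with ratios of 1.98 and 2.05. It was the member listed in both libraries with the highest exon-weighted ratio, and it lay just short of a factor of 2 on the scale with the pseudocount. *Mrpl45*, which holds the ribosome to the inner membrane, was at 2.41 and 4.61 FPKM and at 1.46 and 1.62 exon-weighted. *Mrpl16* was at 3.52 and 6.32 FPKM and at 0.965 and 1.23 exon-weighted. *Mrpl1* was at 3.99 and 6.01 FPKM but at 1.40 and 1.05 exon-weighted, and *Mrpl3* at 4.21 and 5.81 FPKM but at 1.45 and 1.14 exon-weighted. The last 2 were thus higher by FPKM and lower by the exon-weighted value.

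**Figure D3:**
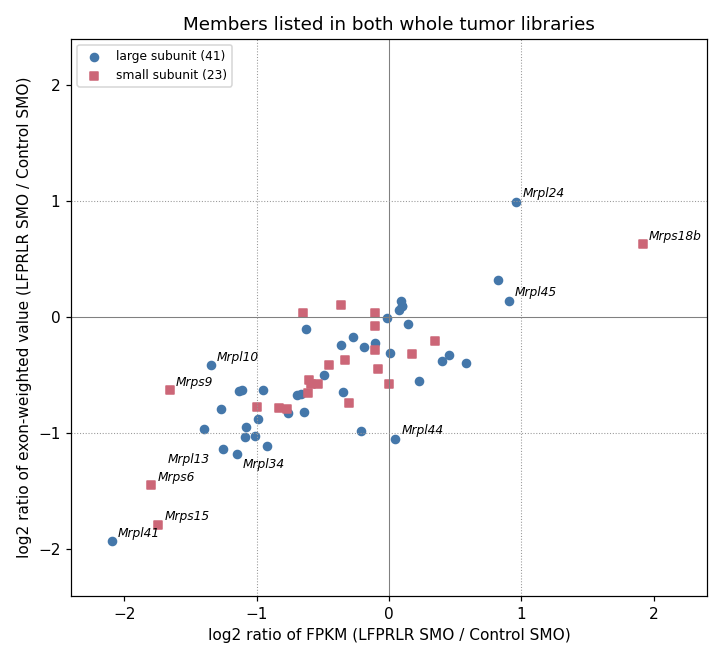
Log2 ratio of LFPRLR SMO to Control SMO by FPKM (horizontal axis) and by exon-weighted value (vertical axis) for the 41 large subunit (blue circles) and 23 small subunit (red squares) members that were listed in both whole tumor libraries and passed the minimum for both measures. Dotted lines mark a factor of 2. *Mrpl41*, *Mrps6* and *Mrps15* lie lowest by both measures, and *Mrps18b* and *Mrpl24* lie highest.

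The deposited 95% bounds of FPKM describe the fit to 1 library and not the spread between mice, and 94.0% of Control SMO transcripts and 95.3% of LFPRLR SMO transcripts had an FPKM inside them. A single transcript in each library was assembled for 44 members, and for 37 of these the FPKM lay inside its bounds in both. Among the 37 the bounds did not overlap for 5, all lower with LFPRLR SMO, and overlapped for 32. Of the 2035 protein-coding genes of this kind, 1.97% were higher and 11% lower with bounds apart. The 7 left out were *Mrpl13*, *Mrpl14*, *Mrpl23*, *Mrpl51*, *Mrpl52*, *Mrpl54* and *Mrps21*. With them, a count added after seeing the data, the bounds did not overlap for 7 of 44 members, all lower, where 2.55% of 2430 protein-coding genes were higher and 15.3% lower. The added members were *Mrpl13*, with bounds of 13.7 to 19.8 with Control SMO and 6.8 to 10.6 with LFPRLR SMO, and *Mrps21*, with 17.5 to 30.2 and 5.72 to 12.4. *Mrps6* had bounds of 7.64 to 12.6 with Control SMO and 1.91 to 3.89 with LFPRLR SMO. *Mrpl41* had bounds of 4.06 to 9.14 and 1.15 to 2.50, and *Mrpl34* of 6.36 to 11.5 and 1.94 to 4.75. *Mrpl32* had bounds of 9.62 to 16.2 and 3.84 to 7.40, and *Mrpl18*, whose bacterial homologue binds a ribosomal RNA, of 8.14 to 12.4 and 3.67 to 7.25. Among the 37, the member highest with LFPRLR SMO, *Mrpl42*, had bounds of 6.01 to 10.7 and 7.94 to 14.0, which overlap.

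The stalk and its base recruit the translation factors that drive the ribosome. Its 5 members, *Mrpl10*, *Mrpl11*, *Mrpl12*, *Mrpl53* and *Mrpl54*, were all below 0 on the log2 scale, with a median of -1.35 by FPKM and -0.96 exon-weighted. Their summed FPKM was 33.7 with Control SMO and 15.0 with LFPRLR SMO. For comparison, 54.5% of all protein-coding genes were below 0 by FPKM and 67.3% exon-weighted. Among all members these shares were 73.7% and 82.6%. *Mrpl12*, the mobile stalk protein, was at 9.77 and 3.66 FPKM, *Mrpl10*, which anchors it, at 5.79 and 2.22, and *Mrpl11*, at the base, at 4.49 and 4.16. *Mrpl53* was listed with Control SMO only, and without it the medians were -1.22 by FPKM and -0.69 exon-weighted. These places were assigned after the values were seen, and no order among them is given.

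The central protuberance, which touches the small subunit and the tRNAs, had 7 members, *Mrpl18*, *Mrpl27*, *Mrpl38*, *Mrpl40*, *Mrpl46*, *Mrpl48* and *Mrpl58*. By FPKM 5 of 7 were below 0, with a median of -0.69, and by the exon-weighted value 7 of 7 were, with a median of -0.66. Below 0 were also 54.5% and 67.3% of all protein-coding genes, and 73.7% and 82.6% of all members. *Mrpl48* was at 5.12 and 2.54 FPKM and *Mrpl27* at 4.95 and 3.50, whereas *Mrpl38* was at 3.43 and 3.79. The 5 members of the exit tunnel, *Mrpl17*, *Mrpl22*, *Mrpl23*, *Mrpl24* and *Mrpl45*, had a median of -0.19 by FPKM, and their sums were 32.8 and 30.2. Near the peptidyl transferase centre, *Mrpl2*, *Mrpl3*, *Mrpl4* and *Mrpl16* had a median of 0.34 by FPKM but -0.33 exon-weighted over the 3 with such a ratio. Directions by FPKM and exon-weighted value therefore differ for that group.

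In the small subunit, sums differed between the members counted as having a bacterial homologue and the others. The 16 with a homologue summed to 109 FPKM (Control SMO) and 62.5 FPKM (LFPRLR SMO), a ratio of 0.572, with 1 higher and 5 lower by a factor of 2. The 13 others, which take in *Mrps18a* and *Mrps18b*, summed to 69.4 and 66.2, a ratio of 0.954, with 1 higher and 0 lower. The exon-weighted sums gave ratios of 0.611 and 0.892. In the second group *Mrps18b* was at 3.84 FPKM with Control SMO and alone made 14.8 of the sum with LFPRLR SMO. *Mrps18a* and *Mrps18b* are relatives of bacterial S18 and could be counted with the first group instead. The contrast of sums therefore depends on where they are placed. The median log2 ratios of FPKM were -0.77 and -0.33. In the large subunit the ratios of FPKM sums were 0.714 for the 28 members with a homologue and 0.663 for the 21 others. This division was also made after the values were seen.

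Among the homologues of the small subunit, the head proteins *Mrps7*, *Mrps9*, *Mrps10* and *Mrps14* summed to 31.7 FPKM with Control SMO and 16.6 with LFPRLR SMO. *Mrps7* was at 3.67 and 2.02 FPKM, *Mrps10* at 3.93 and 3.45, and *Mrps14* at 5.23 and 5.24. At the messenger RNA entry, *Mrps5* was at 3.89 and 3.66 FPKM and *Mrps24* at 4.06 and 4.60, while both were lower by the exon-weighted value, at 1.46 and 1.05 and at 2.97 and 2.36. *Mrps17* was at 5.81 and 2.87, *Mrps28* at 6.31 and 3.66 and *Mrps2* at 3.07 and 1.98 FPKM. These last 3 were thus lower by 1.55-fold to 2.02-fold, and *Mrps17* lay just short of a factor of 2 on the scale with the pseudocount.

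Most of the proteins without a bacterial homologue were lower by less than a factor of 2. *Mrps22*, *Mrps33* and *Mrps34* were at 5.43 and 5.05, 5.37 and 4.98, and 5.18 and 4.80 FPKM, with ratios of 0.930, 0.927 and 0.927. *Mrps27* was at 7.55 and 6.10, *Mrps35* at 7.71 and 5.62, *Mrps25* at 7.27 and 4.59, and *Mrps31* at 4.47 and 2.90. *Mrps23* was at 2.05 and 2.64 FPKM, but at 1.41 and 1.21 exon-weighted. *Mrps36*, a member by its symbol whose product is a subunit of the oxoglutarate dehydrogenase complex, was at 5.58 and 3.81. *Mrps26* was at 4.43 and 2.66. Of these 10 genes, 9 were lower by FPKM and none by a factor of 2. Of all protein-coding genes, 54.5% were lower by FPKM and 16.5% by a factor of 2.

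A pair of members keep Mrps symbols although their products sit in the large subunit of the mammalian ribosome. *Mrps30* was at 5.66 FPKM (Control SMO) and 4.37 FPKM (LFPRLR SMO), and its exon-weighted values were 1.51 and 1.63. *Mrps18a* was at 4.90 and 3.88 FPKM and at 1.87 and 1.42 exon-weighted. Counting both with the large subunit left its median log2 ratio of FPKM at -0.36 and moved that of the small subunit from -0.49 to -0.56. The relatives of bacterial S18 went different ways, since *Mrps18a* was lower, *Mrps18b* was higher by FPKM and *Mrps18c* was listed with LFPRLR SMO only.

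The length of the assembled transcripts moved with the FPKM ratio. Of the 70 members listed in both libraries, 15 had a longest transcript at least 1.2-fold longer with LFPRLR SMO, and their median log2 ratio was -1.09 by FPKM and -0.63 exon-weighted. For the 37 within 1.2-fold of each other the medians were -0.49 and -0.54, and for the 18 that were shorter by at least that factor with LFPRLR SMO they were 0.22 and -0.39. Over all protein-coding genes the medians for longer, similar and shorter were -0.57, -0.16 and 0.47 by FPKM and -0.13, -0.18 and -0.16 exon-weighted. The part of assembly in single ratios of FPKM was not tested.

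Assembled transcripts of members were short. The median longest one was 955 bases with Control SMO, against 1991 over all protein-coding genes listed in both libraries. These are lengths of assembled pieces, which covered a median of 38.6% of the annotated exon bases of a listed member with Control SMO. Ratios were lower for genes with short assembled transcripts as a whole. The median exon-weighted log2 ratio was -0.54 for the 210 protein-coding genes with a mean length of 300 to 600 bases, -0.37 for 854 genes of 600 to 1000 bases, -0.24 for 3319 of 1000 to 2000 bases and -0.11 for 4082 of 2000 bases or more. Members had -0.73 over 6 genes, -0.44 over 32 and -0.55 over 29 in the first 3 of these classes. By FPKM the 32 members of 600 to 1000 bases had a median of -0.29, against -0.26 for all protein-coding genes of that length. The 29 members of 1000 to 2000 bases had -0.37, against -0.14.

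Lists of related genes are given for comparison of level and ratio. Of 74 cytosolic ribosomal protein genes, 72 had a ratio of FPKM, with 8 higher and 14 lower by a factor of 2 and a median log2 ratio of -0.39. Their median FPKM was 173 with Control SMO and 130 with LFPRLR SMO. Of 98 nuclear genes of oxidative phosphorylation, chosen by the first letters of their symbols, 81 had a ratio, with 5 higher, 14 lower and a median of -0.43. Their median FPKM was 14.8 and 9.60. Exon-weighted medians were -0.40 and -0.53. Medians of all of these lists were thus below that of all protein-coding genes by both measures. None of the 15 genes of mitochondrial DNA was listed, so the RNAs that this ribosome translates, and its own rRNAs, have no value.

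The mitoribosomal proteins with other symbols numbered 5, all listed in both libraries, and their median log2 ratio of FPKM was -0.31. *Aurkaip1*, of the small subunit, was at 10.5 and 4.63 FPKM and *Gadd45gip1*, of the large subunit, at 8.73 and 4.19. *Chchd1* was at 10.6 and 8.52 and *Dap3*, a GTP-binding protein of the small subunit, at 5.89 and 5.39, while *Ptcd3* was at 7.17 and 10.6. The mitochondrial translation factors had 1 of 11 higher, 3 lower and a median of -0.74 by FPKM and -0.37 exon-weighted. The elongation factor gene *Tufm* was at 10.3 and 4.04 FPKM and *Gfm1*, which moves the ribosome along the messenger RNA, at 12.1 and 7.23. *Mtfmt*, which formylates the initiator tRNA, was listed with Control SMO only, at 4.33, and *Tsfm* with LFPRLR SMO only, at 1.55.

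Assembly and rRNA processing factors differed between the measures. Of 14 with a ratio of FPKM, 5 were higher and 3 lower by a factor of 2, with a median of 0.46, but the exon-weighted median over 12 was -0.20. *Lrpprc*, which stabilises mitochondrial messenger RNAs, was at 6.09 and 12.1 FPKM and at 3.58 and 4.08 exon-weighted. Its partner *Slirp* was listed with LFPRLR SMO only, at 12.3, and *Malsu1*, an assembly factor of the large subunit, with Control SMO only, at 6.83. Of 13 mitochondrial aminoacyl-tRNA synthetase genes and their like, 5 were higher and 3 lower, with a median of 0.10 by FPKM and -0.17 exon-weighted. Among these *Fars2* was at 8.27 and 2.22 FPKM, *Gatc* at 2.57 and 7.49 and *Vars2* was listed with Control SMO only, at 10.3. *Lars2* stood far above all others, at 30644 and 29413 FPKM in the whole tumor libraries and 48733 in the tumor Treg set. The whole list, *Lars2* included, summed to 30692 and 29454 FPKM in whole tumor, but to 8165 and 6736 exon-weighted. Most of the *Lars2* FPKM there thus came from transcripts that cover only part of the gene. It is not shown to be the level of the full messenger RNA.

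Regulators of mitochondrial genes showed little difference. Of 9 with a ratio, 0 were higher and 1 was lower by a factor of 2, with a median log2 ratio of FPKM of -0.04, which is above 0 once FPKM is scaled to the same sum. *Nrf1* was at 3.67 and 5.19 FPKM, *Gabpa* at 6.68 and 5.85 and *Yy1* at 8.69 and 7.44, the genes of factors whose motifs are counted above. *Myc* was at 13.9 and 11.9, *Pprc1* at 5.95 and 9.36, and *Polrmt*, the mitochondrial RNA polymerase, was listed with Control SMO only, at 2.77.

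Markers of cell types and of cycling cells also differed between the libraries. Of 15 macrophage and monocyte genes, 14 were lower with LFPRLR SMO, with a median log2 ratio of FPKM of -0.58 and sums of 677 and 443. Of 10 genes of cycling cells, 9 were lower, with a median of -0.39 and sums of 159 and 113. Exon-weighted medians of these lists were -0.61 and -0.51. By FPKM, 54.5% of all protein-coding genes were lower with LFPRLR SMO. A factor of 2 downwards was passed by 3 of the 15 and 1 of the 10 genes. Of all protein-coding genes 16.5% passed it. The 11 listed epithelial genes had a median of 0.13 by FPKM and -0.05 exon-weighted, and the 9 listed fibroblast genes 0.06 and 0.22. The 6 listed endothelial genes had 0.68 by FPKM but -0.03 exon-weighted, and the neutrophil genes 0.56 over 3 and 0.18 over 4. The part of cell makeup in the ratios of the members was not tested.

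In the tumor Treg values 30 of 78 members were listed, 20 of the large and 10 of the small subunit, while 13% of all protein-coding genes were. With transcripts of any length *Mrpl37* and *Mrps18a* were also present, which makes 32. *Mrpl28* was at 6.17 FPKM, the sum of 2 pieces of the gene, *Mrpl33* at 5.48, *Mrps21* at 4.72, *Mrpl42* at 4.02, *Mrpl30* at 3.80, *Mrpl18* at 3.57 and *Mrpl52* at 3.42. *Mrpl12* was at 3.29, *Mrpl13* at 3.11 and *Mrpl24* at 2.97. By the exon-weighted value *Mrps21* was highest at 3.93, followed by *Mrpl18* at 2.81 and *Mrpl28* at 2.73, while *Mrpl33* was at 0.932 and *Mrpl42* at 0.783. The median was 2.71 in the large subunit and 1.93 in the small subunit. As a place among listed protein-coding genes the median member stood at percentile 27.9. These values were made with StringTie and normalized on their own, so their FPKM is not set against that of whole tumor as a ratio.

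Of the small subunit, *Mrps33* was at 2.97, *Mrps16* at 2.59, *Mrps36* at 2.44, *Mrps18c* at 1.95, *Mrps24* at 1.90 and *Mrps23* at 1.62 FPKM in the tumor Treg values. *Mrps14* was at 1.21, *Mrps28* at 1.11 and *Mrps30* at 0.952. *Mrpl36* and *Mrps16*, listed in whole tumor with Control SMO only, and *Mrps18c*, listed there with LFPRLR SMO only, were all present. The other large subunit members listed were *Mrpl46* at 2.86, *Mrpl20* at 2.56, *Mrpl36* at 1.77, *Mrpl14* at 1.67, *Mrpl27* at 1.2, *Mrpl23* at 1.15, *Mrpl54* at 1.09, *Mrpl34* at 1.05, *Mrpl57* at 0.827, *Mrpl17* at 0.473 and *Mrpl41* at 0.460. *Mrps9* and *Mrpl32*, among the most abundant members of whole tumor with Control SMO, were not listed.

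The depth behind these values was lower than in whole tumor, with a median of 2.08 reads per base, from 0.436 to 5.19. A deposited symbol placed 23 of the listed members and exon structure the other 7. Since 0 of 11 T cell markers and 15 of 15 macrophage and monocyte markers were listed, these levels are not shown to be those of Tregs.

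**Figure D4:**
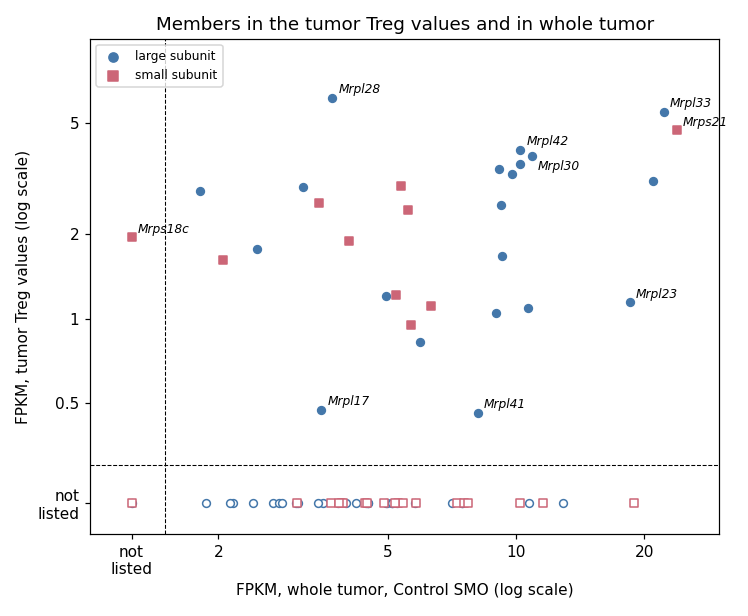
FPKM of each member in the tumor Treg set (vertical axis, log scale) and in the Control SMO whole tumor library (horizontal axis, log scale), for large subunit (blue circles) and small subunit (red squares) genes. Open symbols below the dashed line are members not listed in the tumor Treg values, and points left of the dashed line were not listed in whole tumor with Control SMO. The 30 listed members span 0.460 to 6.17 FPKM in the tumor Treg values, and the scales were set by different programs.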

How the data were processed

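Primary 4T1 tumors of 6 mice per treatment were pooled into 1 library each of whole tumor, and sorted tumor Tregs of further mice likewise. RNA was depleted of rRNA and sequenced on an Illumina MiSeq. In the submitters' processing notes the genome build is mm10 and the tools are Cuffdiff 2.0.2, StringTie 1.2.3, HISAT2 2.0.4 and Cufflinks. No version of Cufflinks is given in those notes. The authors deposited transcript lists whose attribute text holds FPKM, coverage (mean read depth) and, for whole tumor, 95% bounds. Their comparison tables were not used.

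A transcript was given to a gene of GENCODE M21 by deposited symbol (tumor Tregs only, with 83 older symbols renamed), by a shared intron, or by 50% of exon bases. This placed 14802 whole tumor transcripts by intron and 3864 by exon with Control SMO, and 14749 and 5493 with LFPRLR SMO, leaving 3815 and 11666 without a gene. FPKM was summed per gene over transcripts of at least 300 bases. Exon-weighted values also take in unassigned transcripts and those under 300 bases. Ratios used a pseudocount of 0.1 and genes with at least 1 FPKM in a library, and counts a factor of 2. With 1 library per group, no test was run. The counting was tested on simulated data. FPKM reflects the depth of each library, and low members rest on a few reads per base.

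The members and lists were chosen with earlier results of these data known. Named genes were, by rule, members not listed in a library, the 6 most abundant per subunit, the 5 largest rises and falls by FPKM and the 3 by exon-weighted value, members listed in tumor Tregs (the 6 highest per subunit where 30 or more), *Mrps18a*, *Mrps18b*, *Mrps18c* and *Mrps30*, and the leading genes of each list. Other genes named were chosen after their values were seen. Alternatives were other pseudocounts, minimums, factors, transcript lengths, assignments, scalings and subunit assignments. Promoters came from RefSeq. Computation was in Python 3.11.15 with numpy 2.4.6, and plots were drawn with matplotlib 3.10.9.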

Additional observations from a re-analysis of the deposited data

How the results depend on the processing

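The median log2 ratio of FPKM was below 0 under all 15 alternatives for each subunit, from -0.69 to -0.21 in the large and from -0.56 to -0.35 in the small subunit. Of 118 values recomputed for medians and counts, 86 stayed within the limits set, 32 moved and 0 changed sign. A count cannot change sign, so the last of these figures bears on the medians only. The limit for a median was 0.1 on the log2 scale. For the large subunit, the median moved from -0.36 to -0.69 with a minimum of 5 FPKM, -0.63 exon-weighted, -0.56 with assignment by a shared intron only, -0.21 with FPKM scaled to the same sum and -0.24 over members with 1 transcript in each library. The 14 lower members of 48 became 7 with a pseudocount of 1, 9 with a minimum of 5 FPKM and 9 with scaling. They became 22 and 4 with factors of 1.5 and 3, and 6 with 1 transcript in each library. Of all protein-coding genes, 1371 of 9960 were lower with a pseudocount of 1. With a minimum of 5 FPKM these were 769 of 6032, and with scaling 1430 of 9988. With factors of 1.5 and 3 they were 2638 and 996 of 9960. The share of members was thus close to that of all genes with a pseudocount of 1 and below it with a factor of 3. The 0 higher members became 2 with transcripts of at least 500 bases, 1 with the most abundant transcript only and 2 with scaling. They became 2 with centring on the median gene and 3 with a factor of 1.5. In the same order, 1600 of 9803, 1205 of 9953, 1990 of 9988, 1858 of 9960 and 2543 of 9960 protein-coding genes were higher.

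For the small subunit, the median of -0.49 moved to -0.37 with transcripts of at least 500 bases, -0.35 with scaling and -0.39 over members with 1 transcript in each library. The 2 higher members became 0 with at least 500 bases, 1 exon-weighted, 1 among genes listed in both libraries and 0 with 1 transcript in each library. The 5 lower members became 3 with at least 500 bases, 3 exon-weighted and 3 among genes listed in both libraries. They became 13 with a factor of 1.5 and 1 with 1 transcript in each library. Of all protein-coding genes, 1600 of 9803 were higher and 1565 lower with at least 500 bases. Exon-weighted, 249 of 8204 were higher and 637 lower, and among genes listed in both libraries 938 and 890 of 8465. With a factor of 1.5, 2638 of 9960 were lower. For exon-weighted values, a pseudocount of 1 gave medians of -0.41 and -0.33 and 5 lower members of the large subunit in place of 10, and a pseudocount of 0.01 gave 1 higher member in place of 0. The use of coverage in place of FPKM, members with 1 transcript in each library and the pseudocounts of the exon-weighted value were chosen after seeing the data. The causes of these moves were not tested.

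Under the alternatives the count of all protein-coding genes higher and lower by a factor also changed, with 999 and 1643 for assignment by a shared intron only and 807 and 769 with a minimum of 5 FPKM. No paired analysis was possible because each group was 1 library. For the same reason no replicate could be left out, and the spread between mice is unknown. Read depths below 10 per base for most members limit what single ratios show.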
